A study of Mus musculus with 40 samples.

Results

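Transcripts of 10 insulin and IGF signalling genes were examined in the renal cortex of diabetic and non-diabetic mice. They were the ligand Igf1, the binding proteins Igfbp1, Igfbp3 and Igfbp5, the receptors Insr and Igf1r, the adaptors Irs1 and Irs2, and the transcription factors Foxo1 and Foxo3. They were chosen by gene symbol, and all 10 were found among the 55401 genes of the count table and passed the filter on low counts. The comparisons ask how these genes stand when insulin is deficient and whether 2 mitochondria-targeted drugs change that.

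Insulin binds the insulin receptor, and insulin-like growth factor 1 (IGF1) binds the related IGF1 receptor. Both receptors pass the signal through the insulin receptor substrates to the kinases PI3K and AKT, and AKT keeps the FOXO transcription factors out of the nucleus. IGF binding proteins carry IGF1 and set how much of it reaches the receptor. When insulin is low, FOXO factors enter the nucleus and drive genes of gluconeogenesis, growth arrest and fasting, among them Igfbp1 in liver. The kidney cortex responds to insulin and also makes glucose in its proximal tubules.

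The mice were male C57BL/6J animals. Akita mice were heterozygous for the Ins2-Akita allele, a mutated insulin gene whose product misfolds, so that insulin-producing cells are lost and diabetes follows without obesity. WT littermates served as controls, and each mouse gave 1 library. There were 8 groups of 5 mice. In 1 arm, Akita and WT mice received the ethanol vehicle (10% ethanol in water) or MitoGamide at 10 mg/kg, a scavenger of reactive dicarbonyls that is directed to mitochondria. In the other arm, Akita and WT mice received water or MitoQ, a mitochondria-targeted antioxidant whose dose the labels do not give. Gavage was daily from 6 weeks of age, and treatment lasted until 22 weeks of age, as the labels state for the ethanol arm. All mice were male, the diabetes came from a single mutation, and the arms differed in vehicle, so that vehicle and arm cannot be told apart.

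Libraries held between 9106654 and 24321424 counts. In 5 libraries the expression profile stood apart from the rest, with a median Spearman correlation with the other libraries under 0.95. These were replicates 2 and 5 of Akita mice on water, replicate 3 of WT mice on water, replicate 3 of WT mice on MitoQ and replicate 5 of Akita mice on MitoGamide. Mitochondrial transcripts took between 35.4% and 49.2% of the counts in these 5 libraries, against 14.3% to 36.7% in the other 35. The mutated gene itself cannot check the genotype labels in this tissue, because Ins1 had no count in any library and Ins2 had 10 counts in all, at most 2 in a library. Markers of the tubules, the podocytes and the endothelium were detected in every library.

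Levels are given as CPM, read counts divided by library size after TMM scaling, and comparisons between genes use CPM per kilobase of exon. By that measure the order from high to low was Igfbp5 (median over 40 libraries of 69.1 CPM per kb), Igfbp3 (54.0), Igf1r (21.9), Foxo3 (14.2), Insr (11.8), Foxo1 (6.09), Irs2 (5.91), Irs1 (3.30), Igfbp1 (2.83) and Igf1 (0.450). The ranges of neighbours in this order overlapped, except for Igfbp3 and Igf1r. The lowest library for Igfbp3 was at 26.6 CPM per kb and the highest for Igf1r at 26.3. The spread between mice differed widely among the genes. Igf1r varied least, with the highest library 1.52 times the lowest, and Igfbp1 most, with a ratio of 144.

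**Figure D1:**
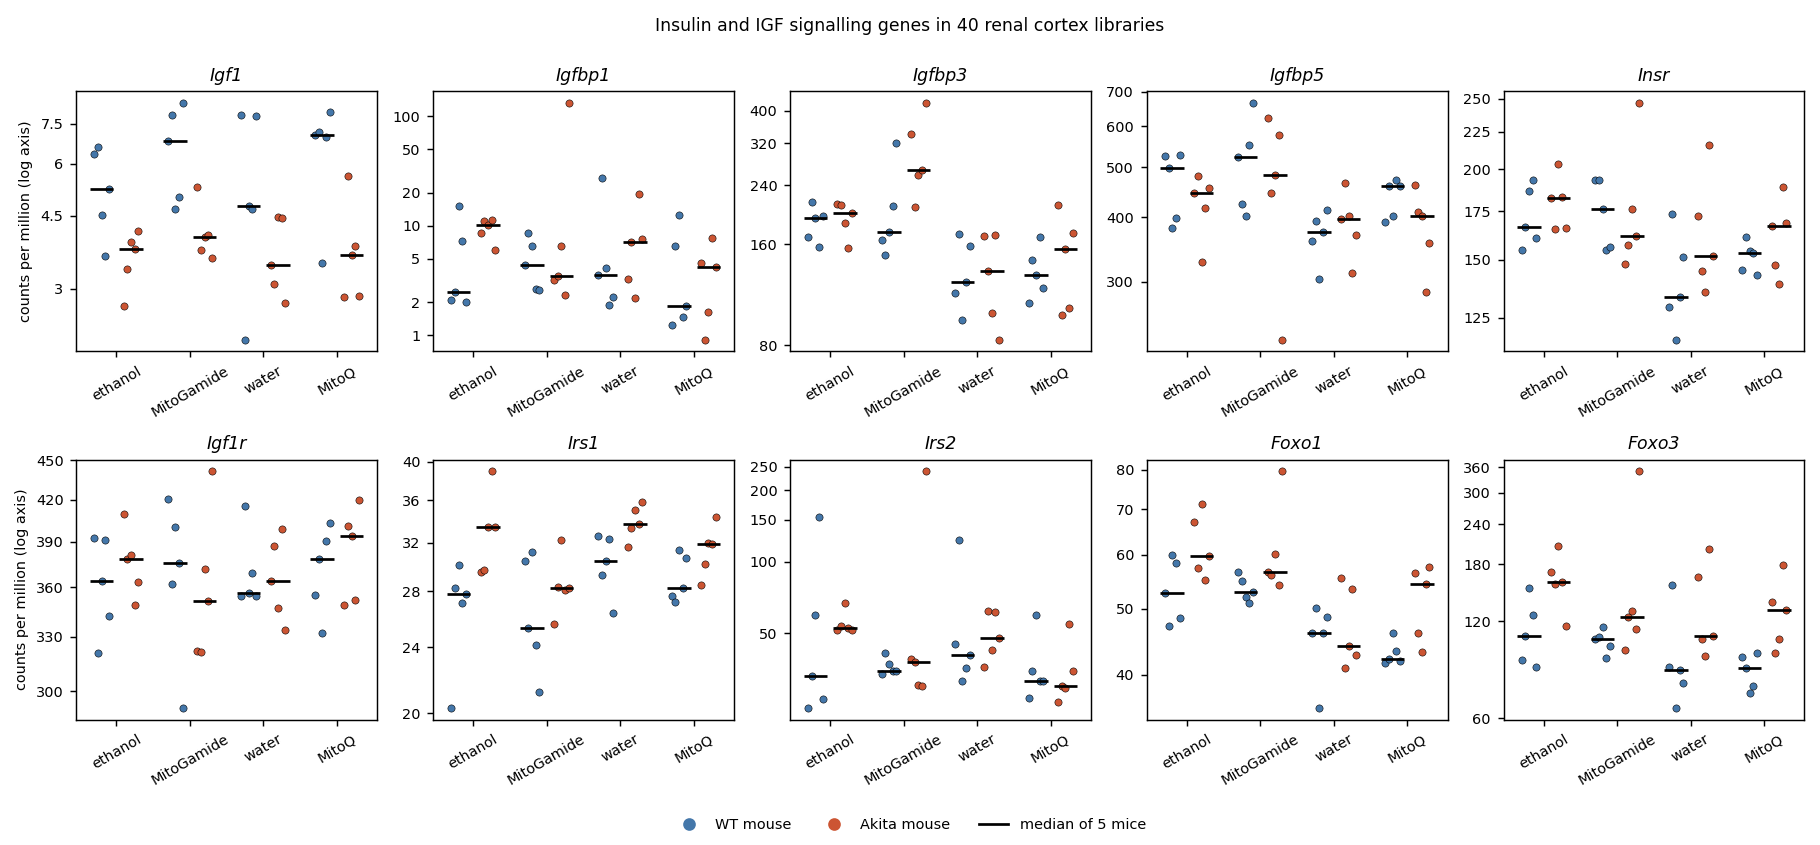
Level of each of the 10 genes (CPM, log axis) in each of the 40 libraries, by treatment, with WT mice in blue, Akita mice in orange and a bar at the median of 5 mice. The median of Igf1 was lower and that of Foxo3 higher in Akita mice in each treatment, and single mice stand far above their group for Igfbp1, Irs2 and Foxo3, among them 1 Akita mouse on MitoGamide at 131 CPM of Igfbp1.

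Over all 4 treatments together, 4 of the 10 genes differed between Akita and WT mice. Igf1 was lower, and Foxo3, Foxo1 and Irs1 were higher in Akita mice. Insr, Igf1r, Irs2, Igfbp1, Igfbp3 and Igfbp5 did not pass the test. In this comparison 22.8% of all 17769 genes tested were called (adjusted p under 0.05, edgeR's quasi-likelihood test with treatment as a factor), and 3 of the 10 genes were called higher and 1 lower, against 1952 higher and 2093 lower among all genes. The median log2 fold change of the 10 genes was 0.18, and that of all genes was -0.02. A share of 4 in 10 rests on few genes and is given as a description. Other measures moved with genotype too. Mitochondrial transcripts took between 21.6% and 43.1% of the counts in Akita mice (median 29.2%) and between 14.3% and 49.2% in WT mice (median 24.9%), and on MitoGamide the groups did not overlap, at 28.0% to 35.4% and 24.6% to 27.8%. The markers of collecting duct principal cells (Aqp2, Avpr2 and Hsd11b2, of which 1 was called higher) summed to between 106 and 201 CPM in Akita mice (median 149 CPM) and between 56.7 and 168 CPM in WT mice (median 108 CPM). Here too the groups on MitoGamide did not overlap, at 106 to 201 CPM and 71.1 to 101 CPM. On MitoQ they did not overlap either, at 119 to 159 CPM in Akita mice and 56.7 to 111 CPM in WT mice. The groups overlapped on the ethanol vehicle and on water. The summed proximal tubule markers (Slc34a1, Lrp2, Slc5a2, Slc5a12, Slc22a6 and Slc27a2, of which 3 were called lower) lay between 9835 and 13064 CPM in Akita mice and between 13099 and 16415 CPM in WT mice on the ethanol vehicle, and between 9055 and 11737 CPM and between 13707 and 15385 CPM on MitoGamide, without overlap in either, and the groups overlapped on water and MitoQ. Over all treatments 3 of 5 podocyte markers and 2 of 5 of stroma, mesangium and pericytes were called higher. Of 6 endothelial markers 3 were called higher and 1 lower. Of 5 macrophage markers 2 were called lower, and of 2 of the thick ascending limb 1 was. For the distal convoluted tubule 0 of 2 and for intercalated cells 0 of 4 were called. The part of these measures in the differences of Igf1, Foxo3, Foxo1 and Irs1 was not tested.

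**Figure D2:**
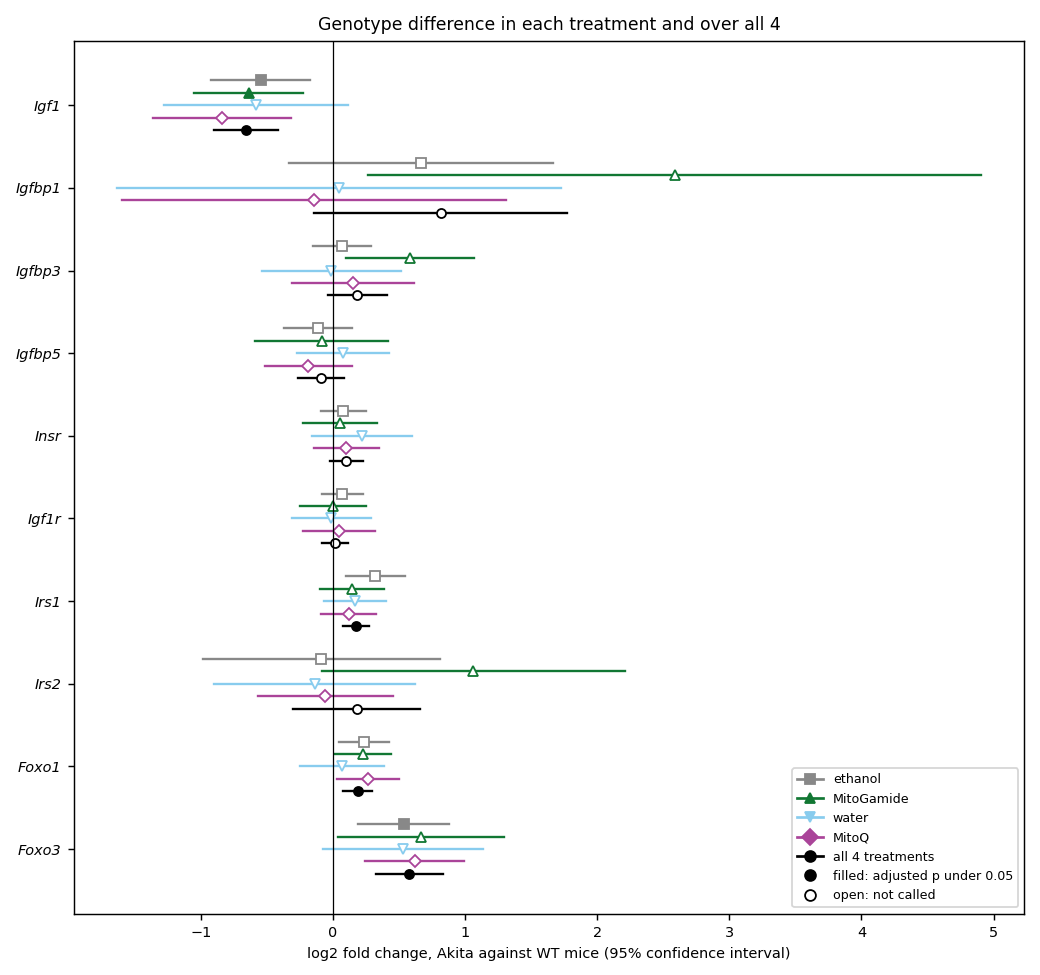
Log2 fold change between Akita and WT mice for each gene in each of the 4 treatments and over all of them, with 95% confidence intervals; filled symbols mark an adjusted p under 0.05. Over all treatments the interval of Igf1 lies below 0 and that of Foxo3 above 0, and the widest intervals are those of Igfbp1 and Irs2.

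Igf1 encodes the growth factor itself (chr10:87858265-87937042, plus strand, GRCm38). It is made mainly in liver under growth hormone and at low levels in many tissues. On the ethanol vehicle, Igf1 stood at 2.73, 3.35, 3.74, 3.88 and 4.14 CPM in Akita mice and at 3.60, 4.52, 5.22, 6.34 and 6.59 CPM in WT mice. On MitoGamide it stood at 3.56, 3.71, 3.99, 4.05 and 5.27 CPM in Akita mice and at 4.66, 4.99, 6.80, 7.86 and 8.40 CPM in WT mice. In both of these pairs every Akita mouse was below the WT median, and the ranges overlapped. On water, Igf1 ranged through 2.77, 3.08, 3.42, 4.43 and 4.48 CPM in Akita mice and 2.26, 4.67, 4.75, 7.82 and 7.89 CPM in WT mice. The WT mouse at 7.89 CPM was replicate 1, whose liver markers (Alb, Apoa1, Ttr and Serpina1a) summed to 444 CPM, against 18.8 to 82.2 CPM in the other libraries, and without it the log2 fold change of Igf1 on water was -0.40. On MitoQ the values were 2.85, 2.88, 3.61, 3.80 and 5.62 CPM in Akita mice and 3.46, 6.97, 7.04, 7.16 and 8.02 CPM in WT mice. The low WT mouse on MitoQ was replicate 3, one of the libraries that stood apart, with 16 Igf1 counts. Over all treatments, Igf1 was at 3.77 ± 0.775 CPM in Akita mice and 5.95 ± 1.77 CPM in WT mice (mean ± SD, n = 20 mice each), and 0 of the 20 Akita mice were above the WT median. The log2 fold change was -0.66 (SE 0.12, edgeR adjusted p = 4.88e-05).

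Within single treatments, Igf1 fell on the ethanol vehicle (log2 fold change -0.55, SE 0.17, edgeR adjusted p = 0.0482) and on MitoGamide (-0.64, SE 0.19, edgeR adjusted p = 0.0434). Its log2 fold change was -0.58 on water (edgeR adjusted p = 0.812) and -0.84 on MitoQ (edgeR adjusted p = 0.193). Both calls were close to the threshold. Each was lost when any of 7 of the 10 libraries was left out, and both were lost when all 40 libraries were fitted together (edgeR adjusted p = 0.226 and 0.0683), without a filter on low counts (edgeR adjusted p = 0.0531 and 0.0544), with the replicate number as a block (edgeR adjusted p = 0.093 and 0.0771) and by limma voom (adjusted p = 0.0613 and 0.0543). Without WT replicate 3 on MitoQ, the difference there was -0.97 with an edgeR adjusted p of 0.0333. In bulk tissue, less Igf1 RNA per cell and fewer cells that make it cannot be told apart. Macrophage markers moved in the same direction, with 2 of 5 (list of Adgre1, Cd68, Csf1r, C1qa and C1qb) called lower in Akita mice. Their summed level was between 24.9 and 49.1 CPM in Akita mice and between 39.4 and 73.9 CPM in WT mice, and all 5 passed the filter. The groups did not overlap on water, at 27.2 to 39.5 CPM in Akita mice and 46.0 to 61.0 CPM in WT mice, or on MitoQ, at 24.9 to 36.5 CPM and 39.4 to 61.4 CPM. They overlapped on the ethanol vehicle, at 31.7 to 46.8 CPM in Akita mice and 46.3 to 66.5 CPM in WT mice. On MitoGamide they overlapped too, at 37.5 to 49.1 CPM and 40.1 to 73.9 CPM. In each of the ethanol, water and MitoQ pairs 1 of the 5 markers was called lower, and 0 on MitoGamide. The part of the macrophage markers in the Igf1 difference was not tested.

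Igfbp1 encodes a secreted binding protein whose gene insulin represses and FOXO factors activate in liver. It lies on chr11:7197782-7202546 (plus strand), 3539 bases from Igfbp3. In the kidney cortex it was the most variable of the 10 genes. Akita mice on the ethanol vehicle had Igfbp1 at 6.06, 8.56, 10.2, 11.0 and 11.2 CPM, and 4 of these 5 mice were above all WT mice but one. The WT mice were at 2.03, 2.11, 2.49, 7.25 and 15.3 CPM. On MitoGamide it was at 2.33, 3.17, 3.50, 6.61 and 131 CPM in Akita mice and at 2.58, 2.67, 4.42, 6.58 and 8.60 CPM in WT mice. Here 1 Akita mouse, replicate 5, was at 39.4 times the median of its 4 group mates, whose values lay within or below the WT range. On water, the Akita mice were at 2.21, 3.30, 7.19, 7.53 and 19.7 CPM of Igfbp1 and the WT mice at 1.91, 2.22, 3.59, 4.10 and 27.3 CPM. On MitoQ the Akita mice were at 0.914, 1.63, 4.21, 4.59 and 7.76 CPM and the WT mice at 1.25, 1.46, 1.87, 6.52 and 12.5 CPM. All 4 pairs of groups overlapped.

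Over all treatments the log2 fold change of Igfbp1 was 0.81 (SE 0.47, 95% confidence interval -0.14 to 1.77, edgeR adjusted p = 0.233), and 16 of the 20 Akita mice were above the WT median of 3.13 CPM. Without Akita replicate 5 on MitoGamide the log2 fold change was 0.12 (adjusted p = 0.858), and without the replicates numbered 2 it was 1.41 and called (edgeR adjusted p = 0.0476). On the ethanol vehicle alone it was 0.67 (edgeR adjusted p = 0.368), and without WT replicate 3, the mouse at 15.3 CPM, it was 1.47 and called (adjusted p = 0.0111). Igfbp1 is abundant in liver. The liver markers summed to 35.1 CPM in Akita replicate 5 on MitoGamide, and the other libraries lay between 18.8 and 82.2 CPM, except for WT replicate 1 on water at 444 CPM, where Igfbp1 was at 3.59 CPM. The part of liver RNA in the Igfbp1 values was not tested.

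The promoter of Igfbp1 is known for an insulin response sequence to which FOXO factors bind, and its core letters were looked for upstream of the members. Windows from 250 bases before to 50 after the start were available from RefSeq (GRCm38.p6) for 9 of the 10 genes, all but Insr. The letters TGTTTTG, or CAAAACA on the other strand, were found in 3 of these 9 windows, those of Igfbp1, Irs2 and Irs1, and in 6.28% of all 32851 windows. Of these 3 genes, Igfbp1 and Irs2 had the largest ratios between the highest and the lowest mouse among the 10 genes, 144 and 9.88, and Irs1 had the smallest but one, 1.92. The FOXO letters TGTTTAC, or GTAAACA on the other strand, were in none of the 9 windows, a count of 0, and in 3.65% of all windows. The shorter letters TGTTT, or AAACA on the other strand, are contained in both of these and were in 6 of 9 windows and in 50.5% of all. These matches describe the letters only. The stretches from 250 to 6 bases before the start are printed for the 3 genes, 5′ to 3′ on the strand of the gene, with TGTTTTG or CAAAACA in capitals. They are chr11:7197537-7197781 for Igfbp1 (plus strand), chr8:11008935-11009179 for Irs2 (minus strand) and chr1:82291445-82291689 for Irs1 (minus strand).
Igfbp1: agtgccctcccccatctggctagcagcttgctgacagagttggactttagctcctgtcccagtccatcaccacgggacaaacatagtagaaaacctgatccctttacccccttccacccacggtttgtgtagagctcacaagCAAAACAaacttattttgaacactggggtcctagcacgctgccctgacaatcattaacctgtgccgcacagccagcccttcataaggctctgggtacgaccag
Irs2: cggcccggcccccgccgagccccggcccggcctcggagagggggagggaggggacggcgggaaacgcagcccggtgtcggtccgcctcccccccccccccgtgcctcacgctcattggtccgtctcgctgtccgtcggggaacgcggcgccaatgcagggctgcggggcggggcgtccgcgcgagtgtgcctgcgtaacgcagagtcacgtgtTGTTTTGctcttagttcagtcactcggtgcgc
Irs1: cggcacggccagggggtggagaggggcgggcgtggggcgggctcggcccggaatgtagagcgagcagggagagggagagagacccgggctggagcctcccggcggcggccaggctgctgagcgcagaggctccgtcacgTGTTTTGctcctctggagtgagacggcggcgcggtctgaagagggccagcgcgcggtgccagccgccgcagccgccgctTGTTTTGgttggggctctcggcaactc

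The capitals begin 108 bases before the start in Igfbp1, 37 bases before it in Irs2, and 111 and 32 bases before it in Irs1. These are the RefSeq starts, which differ from the starts of the GENCODE genes given here by 5 bases for Igfbp1, 23 for Irs1 and 471 for Irs2, where the RefSeq start lies upstream. Irs1 thus held the letters at 2 places. Of the 3 genes, Irs1 was called higher over all treatments and Igfbp1 and Irs2 were not.

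Igfbp3 encodes the main carrier of IGF1 in blood, which forms a complex with the acid-labile subunit (chr11:7206086-7213923, minus strand). Over all treatments its log2 fold change was 0.18 (SE 0.11, edgeR adjusted p = 0.251), and 13 of 20 Akita mice were above the WT median. The 5 Akita mice on MitoGamide were the highest group, at 207, 258, 266, 342 and 421 CPM of Igfbp3, and the 5 WT mice on MitoGamide were at 148, 164, 174, 208 and 320 CPM. The log2 fold change between these groups was 0.58 and not called (edgeR adjusted p = 0.0993). It was called in 1 of the 10 fits with a library left out, that without WT replicate 5 (0.81, edgeR adjusted p = 0.0159). The Akita mice on the ethanol vehicle were at 156, 185, 198, 210 and 211 CPM. Igfbp5 encodes a binding protein that is also found in the extracellular matrix (chr1:72857932-72874884, minus strand). It ranged from 231 to 623 CPM in Akita mice and from 303 to 665 CPM in WT mice, with a log2 fold change of -0.09 (95% confidence interval -0.26 to 0.08, edgeR adjusted p = 0.50). Its lowest library was the same Akita replicate 5 on MitoGamide that was highest for Igfbp1.

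The receptors did not pass the test in any of the comparisons by edgeR on all libraries. Insr encodes the insulin receptor (chr8:3122061-3279617, minus strand) and ranged from 136 to 246 CPM in Akita mice, with a median of 166 CPM, and from 117 to 193 CPM in WT mice, with a median of 156 CPM. Its log2 fold change over all treatments was 0.10 (95% confidence interval -0.02 to 0.23, edgeR adjusted p = 0.258). It was 0.20 and called when the replicates numbered 2 were left out (adjusted p = 0.0396). Igf1r encodes the IGF1 receptor (chr7:67952827-68233668, plus strand) and was at a median of 368 CPM in Akita mice and 367 CPM in WT mice. Its log2 fold change was 0.01, and the 95% confidence interval from -0.09 to 0.11 spans less than that of any other of the 10 genes.

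Irs1 and Irs2 encode the adaptors that the active receptors phosphorylate. Irs1 (chr1:82233101-82291416, minus strand) ranged from 25.6 to 39.0 CPM in Akita mice, with a median of 31.9 CPM, and from 20.3 to 32.6 CPM in WT mice, with a median of 28.3 CPM. The ranges overlapped, and 18 of 20 Akita mice were above the WT median. The log2 fold change was 0.17 (SE 0.05, edgeR adjusted p = 0.0082). In single treatments it was between 0.12 on MitoQ and 0.32 on the ethanol vehicle. Among mice on the ethanol vehicle, Irs1 was at 29.6, 29.7, 33.5, 33.5 and 39.0 CPM in Akita mice and at 20.3, 27.1, 27.8, 28.2 and 30.1 CPM in WT mice, with an edgeR adjusted p of 0.0515. DESeq2 called this difference (adjusted p = 0.0318).

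Irs2 (chr8:10984681-11008458, minus strand) had a higher level per kilobase than Irs1 (medians of 5.91 and 3.30 CPM per kb) and a wider spread between mice. With the ethanol vehicle, Irs2 was at 51.3, 51.6, 52.5, 53.7 and 67.2 CPM in Akita mice and at 24.2, 26.3, 32.8, 59.3 and 154 CPM in WT mice. On MitoGamide it was at 29.9, 30.2, 37.6, 39.0 and 239 CPM in Akita mice and at 33.5, 34.6, 34.8, 37.1 and 41.3 CPM in WT mice. In each of these pairs 1 mouse, WT replicate 4 and Akita replicate 5, was far above all others. On water the Akita mice were at 36.1, 42.4, 47.7, 61.1 and 61.9 CPM of Irs2 and the WT mice at 31.3, 35.5, 40.4, 44.9 and 123 CPM. On MitoQ the Akita mice were at 25.5, 29.2, 29.8, 34.7 and 54.4 CPM and the WT mice at 26.7, 31.3, 31.5, 34.5 and 59.7 CPM. Over all treatments the log2 fold change was 0.18 (SE 0.24, edgeR adjusted p = 0.658), and 14 of 20 Akita mice were above the WT median. Without Akita replicate 5 on MitoGamide it was -0.08 (adjusted p = 0.805). On the ethanol vehicle it turned from -0.09 to 0.64 without WT replicate 4 (edgeR adjusted p = 0.0721).

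Foxo1 and Foxo3 encode the transcription factors at the end of the pathway. Foxo3 (chr10:42181841-42276755, minus strand) was the most raised of the 10 genes among those called. In mice given the ethanol vehicle, Foxo3 was at 116, 156, 159, 170 and 205 CPM in Akita mice and at 86.7, 90.8, 108, 125 and 152 CPM in WT mice. On MitoGamide it was at 97.8, 114, 123, 129 and 350 CPM in Akita mice and at 92.4, 101, 105, 107 and 115 CPM in WT mice. The groups overlapped in both pairs, and the mouse at 350 CPM was again Akita replicate 5. On water, the Akita mice were at 93.3, 105, 108, 165 and 201 CPM of Foxo3 and the WT mice at 64.5, 77.0, 84.7, 86.4 and 155 CPM. On MitoQ the Akita mice were at 95.6, 106, 130, 138 and 179 CPM and the WT mice at 71.6, 75.4, 85.7, 93.0 and 95.4 CPM. The groups did not overlap on MitoQ, and no other pair did so among the 10 genes and 4 treatments. Among all genes, groups did not overlap for 2.93% on MitoQ, 13.0% on the ethanol vehicle, 12.4% on MitoGamide and 2.53% on water.

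Over all treatments, Foxo3 was at 147 ± 58.9 CPM in Akita mice and 98.6 ± 24.0 CPM in WT mice (mean ± SD, n = 20 mice each), and all 20 Akita mice were above the WT median of 92.7 CPM. The log2 fold change was 0.58 (SE 0.13, edgeR adjusted p = 0.000564), and without Akita replicate 5 on MitoGamide it was 0.48 (adjusted p = 0.000578). It was called on the ethanol vehicle (0.54, SE 0.16, edgeR adjusted p = 0.0367) and not on MitoGamide (0.67, edgeR adjusted p = 0.137, and 0.19 without Akita replicate 5, adjusted p = 0.155), water (0.53, edgeR adjusted p = 0.778) or MitoQ (0.62, edgeR adjusted p = 0.176). The call on the ethanol vehicle was lost when any of 7 of the 10 libraries was left out. It was also lost with all 40 libraries in 1 fit (0.52, edgeR adjusted p = 0.322). Foxo1 (chr3:52268336-52353221, plus strand) ranged from 41.0 to 79.6 CPM in Akita mice, with a median of 55.7 CPM, and from 35.8 to 60.0 CPM in WT mice, with a median of 48.6 CPM. Its log2 fold change was 0.19 (SE 0.05, edgeR adjusted p = 0.00872), with 15 of 20 Akita mice above the WT median. In single treatments it ranged from 0.07 on water to 0.27 on MitoQ and was not called.

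Among single treatments, 2 of the 10 genes were called on the ethanol vehicle, where 16.4% of all genes were called, and 1 on MitoGamide, where 14.3% were. None, a count of 0, was called on water, where 0.552% of all genes were called, and 0 on MitoQ, where 0.557% were. An unadjusted p under 0.05 in edgeR was reached by 4 of the 10 genes on the ethanol vehicle and by 30.1% of all genes there, and by 5 of the 10 on MitoGamide and 31.1% of all genes. It was reached by 0 of the 10 on water and 7.56% of all genes, and by 3 of the 10 on MitoQ and 9.06% of all genes. DESeq2 called 0 on water and 2 on MitoQ, Igf1 and Foxo3. Whether the genotype difference itself varied between the 4 treatments was tested with the interaction terms, and 0 of the 10 genes and 0% of all genes were called by edgeR. An unadjusted p under 0.05 was reached there by 0 of the 10 genes and by 4.97% of all genes, or 883. DESeq2 called 0 of the 10 and 15 of all genes. Calls on the ethanol vehicle and their absence on water are therefore not shown to differ.

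The drugs were compared with their own vehicles in each genotype. In Akita mice on MitoGamide against Akita mice on the ethanol vehicle, 0 of the 10 genes and 1.26% of all genes were called by edgeR. An unadjusted p under 0.05 was reached by 20.9% of all genes and by 1 of the 10, Igfbp3, with a log2 fold change of 0.64 (SE 0.16, edgeR adjusted p = 0.0658) and all 5 treated mice above the vehicle median. DESeq2 called it (adjusted p = 0.00775), and edgeR called it without Akita replicate 5 on MitoGamide (0.50, adjusted p = 0.0476). Igfbp3 itself overlapped between these groups, at 207 to 421 CPM on MitoGamide and 156 to 211 CPM on the vehicle. The summed markers of 2 cell types were higher in every Akita mouse on MitoGamide than in any on the vehicle. The 6 endothelial markers summed to between 373 and 551 CPM on MitoGamide and between 302 and 355 CPM on the vehicle, and the 5 markers of stroma, mesangium and pericytes to between 186 and 249 CPM and between 144 and 182 CPM. Their part in the Igfbp3 value was not tested. The same mouse set the direction for Igfbp1, Irs2 and Foxo3. With it the log2 fold changes were 1.59, 0.43 and 0.01 (edgeR adjusted p = 0.371, 0.676 and 0.988). Without it they were -1.23, -0.67 and -0.45, with edgeR adjusted p of 0.0276, 0.0149 and 0.0751, and 802 genes in all were called in place of 214. The count over all genes moved widely with other mice as well. It was 0 without Akita replicate 1 or 2 on the ethanol vehicle, 3, 2 and 4 without replicate 3, 4 or 5, and 13, 101 and 30 without Akita replicate 2, 3 or 4 on MitoGamide.

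In WT mice on MitoGamide, 0% of all genes and 0 of the 10 were called against the ethanol vehicle. Their log2 fold changes were between -0.71 for Irs2 and 0.32 for Igf1, and the DESeq2 count was 74 of all genes and 0 of the 10. With MitoQ against water, 0% of all genes were called in Akita mice and 0% in WT mice, and 0 of the 10 in either by edgeR and by DESeq2. In Akita mice Irs2 had an unadjusted p under 0.05 (log2 fold change -0.52, SE 0.22, edgeR adjusted p = 0.999), as 1.96% of all genes did, with 4 of 5 treated mice below the water median. In WT mice the log2 fold changes lay between -0.85 for Igfbp1 and 0.27 for Igf1. MitoGamide and MitoQ were given in different vehicles and were not compared with each other.

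In Akita replicate 5 on MitoGamide, several genes of the pathway were high together. This mouse was singled out after its values were seen, and its values are a description. Igfbp1 was at 39.4 times, Irs2 at 7.06 times and Foxo3 at 2.95 times the median of the other 4 Akita mice on MitoGamide. Igfbp3 was at 1.61 times, Insr at 1.54 times, Foxo1 at 1.41 times and Igf1r at 1.31 times that median, Irs1 at 1.00 times and Igf1 at 0.886 times, and Igfbp5 was at 0.436 times. More than 2-fold above the highest of the other 4 were 3 of the 10 genes, against 2.58% of 17499 genes in all, and 2.81% were more than 2-fold below the lowest. Among 23 genes known as FOXO family members or as targets of FOXO or insulin, 8 were more than 2-fold above. They included Pdk4, a kinase that turns off pyruvate oxidation in fasting, at 314 CPM against 13.9 to 37.9 CPM in the other 4. Txnip, an arrestin that restrains glucose uptake, was at 1443 CPM against 215 to 358 CPM. Pck1, the cytosolic enzyme that commits carbon to gluconeogenesis, was at 8469 CPM against 2423 to 3914 CPM. Of 6 genes of the growth hormone axis, the feedback inhibitors Cish and Socs2 were more than 2-fold above, and of 31 genes of PI3K, AKT and mTOR signalling 0 were. Of 9 other IGF ligands, binding proteins and regulators 0 were, and of 13 adaptors 1, Socs3, was more than 2-fold above and 1, Irs3, more than 2-fold below. The library was one of those that stood apart, with 35.4% mitochondrial counts against 28.0% to 30.5% in the other 4, and cell type markers stood out in it too. Podocyte markers summed to 474 CPM against 238 to 316 CPM in the other 4 and were higher than in any other library, and so were endothelial markers, at 551 CPM against 373 to 525 CPM, and intercalated cell markers, at 170 CPM against 104 to 127 CPM. Distal convoluted tubule markers summed to 953 CPM against 616 to 738 CPM, and proximal tubule markers to 9055 CPM, the lowest of the 5 mice. The part of these in its values was not tested.

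Mice of the same group that were high for one of these genes tended to be high for others. After the mean of each group was subtracted from log2 CPM, Pearson correlations over the 40 libraries were 0.87 for Insr and Foxo3, 0.81 for Insr and Foxo1, 0.80 for Irs2 and Igfbp1, 0.77 for Foxo1 and Foxo3 and 0.76 for Igfbp1 and Foxo3. Without the 5 libraries that stood apart, the same pairs were at 0.81, 0.71, 0.67, 0.65 and 0.81 over 35 libraries. Igfbp5 went the opposite way, with -0.67 with Foxo3 and -0.67 with Igfbp1, or -0.58 and -0.51 over 35 libraries. Igf1 and Igfbp1 were at -0.52 and -0.51. Irs1 and Insr were at 0.15 and 0.22. In 5 of the 8 groups the same mouse was highest for Igfbp1 and Irs2, and in 5 of 8 the same mouse was highest for Igfbp1 and Foxo3. The points of these correlations share their libraries and scaling, and the values are descriptive.

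**Figure D3:**
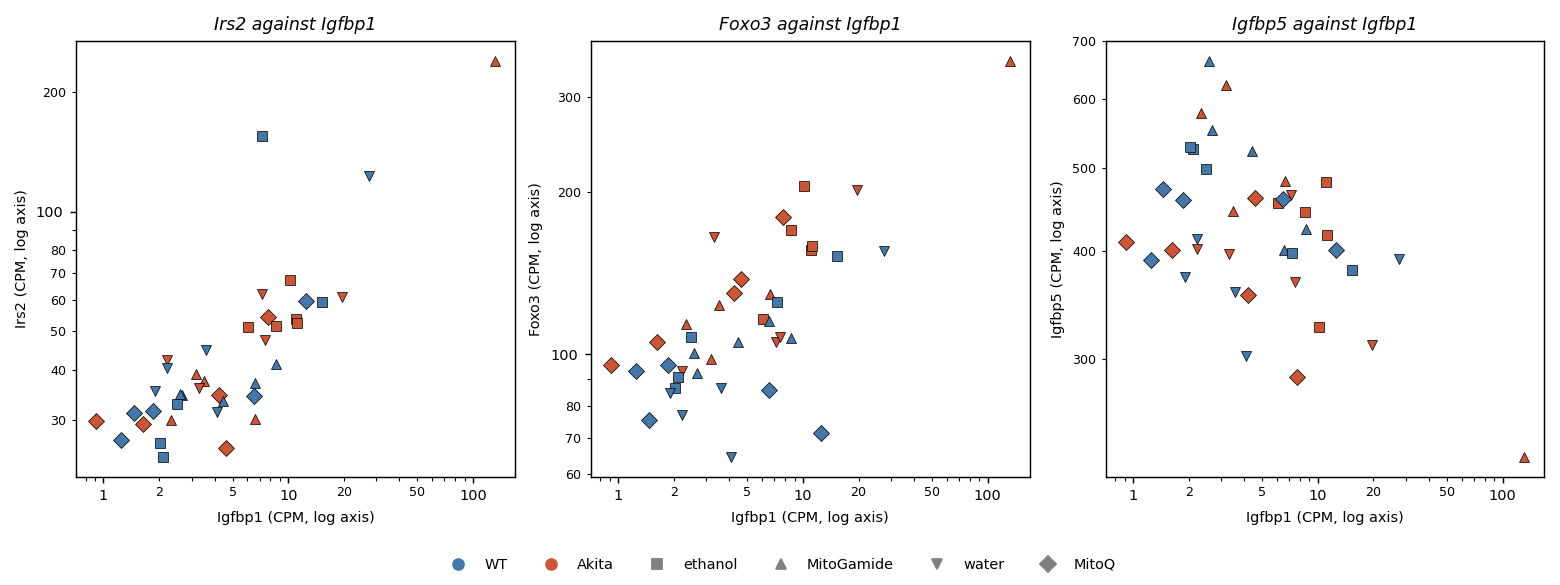
Irs2, Foxo3 and Igfbp5 (CPM, log axes) against Igfbp1 in each of the 40 libraries, with WT mice in blue, Akita mice in orange and a symbol for each treatment. Irs2 and Foxo3 run up with Igfbp1 in mice of both genotypes and Igfbp5 runs down, and the mouse at 131 CPM of Igfbp1 lies at the end of each plot.

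**Figure D4:**
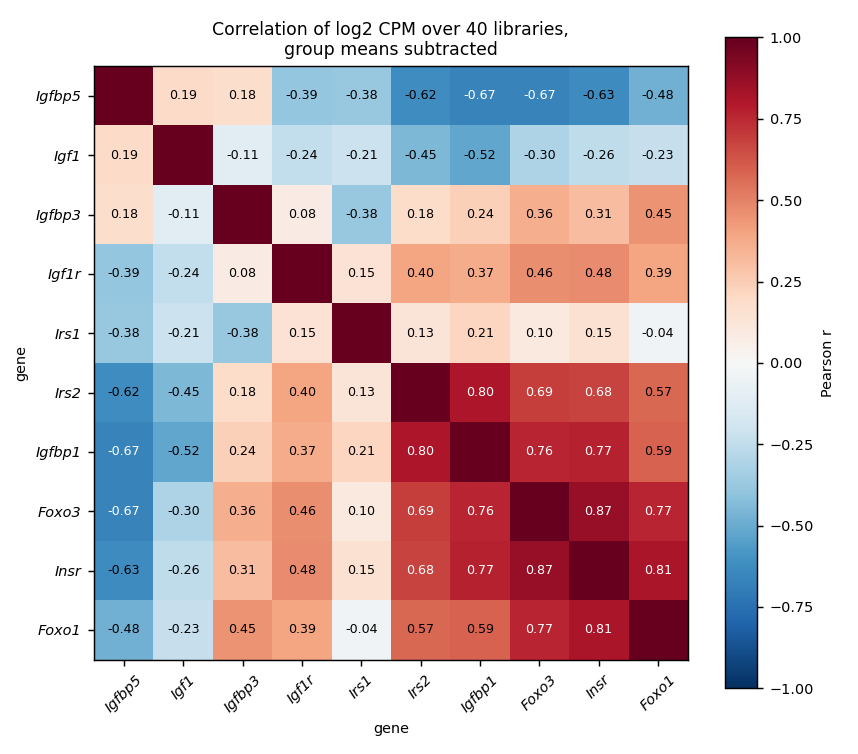
Pearson correlation of log2 CPM between each pair of the 10 genes over 40 libraries after the mean of each group was subtracted, with red for positive and blue for negative values. Irs2, Igfbp1, Foxo3, Insr and Foxo1 form a block between 0.57 and 0.87, Igfbp5 is negative with all of them, and Irs1 stands outside it.

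Outside the 10 genes, the profiles most like each of them were found among 13771 tested genes by the same measure over 40 libraries. For Igfbp1 they were Fam13a (r = 0.87) and Erbb3 (0.86), for Irs2 Fosl2 (0.85) and Il7 (0.84), and for Foxo3 Herpud1 (0.89) and Pnpla2 (0.88). For Insr they were Fnbp1l (0.91) and Ptch1 (0.89), and Fnbp1l (0.83) was also among the 2 nearest to Foxo1, behind Usp2 (0.84). Igfbp3 was nearest to Fbln5 (0.89) and Mfge8 (0.83), and Igfbp5 to Tril (0.85) and Aplnr (0.82). The lowest nearest values were those of Igf1r (Cbfa2t2, 0.68), Irs1 (Me3, 0.71) and Igf1 (Nt5e, 0.72).

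Beyond the 10 genes, 83 of 91 other listed genes of the pathway passed the filter over all treatments, and 31 of the 83 were called between Akita and WT mice, 21 higher and 10 lower. This stands beside the 22.8% called among all genes. The median log2 fold change of the 83 was 0.01. The lists were chosen with earlier results of these data known, so that their counts describe and do not test a theme.

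Among IGF ligands, binding proteins and their regulators, 5 of 10 were called higher and 3 lower. Stc1, encoding stanniocalcin-1, an inhibitor of the proteases that cleave IGF binding proteins, ranged from 4.32 to 21.4 CPM in Akita mice (median 8.04) and from 2.03 to 5.18 CPM in WT mice (median 3.40). The mouse at 21.4 CPM was Akita replicate 5 on MitoGamide, and the rest of its group lay between 4.32 and 12.7 CPM. The log2 fold change of Stc1 was 1.40 (SE 0.14), and it was called in each of the 4 treatments by edgeR on all libraries. On water that call was lost with the replicate number as a block (1.48, edgeR adjusted p = 0.0692) and without the libraries that stood apart (1.46, edgeR adjusted p = 0.196). Pappa, encoding one of these proteases, rose by 0.84 (SE 0.10) from a WT median of 11.1 to 20.3 CPM in Akita mice, and all 20 Akita mice were above the WT median. The related protease gene Pappa2 fell from a WT median of 1.53 to 0.432 CPM in Akita mice (log2 fold change -1.75, SE 0.22), and all 20 Akita mice were below the WT median. Pappa2 was near the limit of detection, at 0 to 1.44 CPM in Akita mice and 0.740 to 2.48 CPM in WT mice. It was called on the ethanol vehicle and MitoGamide and not on water (-1.29, edgeR adjusted p = 0.309) or MitoQ (-1.23, edgeR adjusted p = 0.243). Over all treatments Pappa and Pappa2, whose products cleave partly different binding proteins, thus moved in opposite directions. Igf2, the second IGF, was near the limit of detection in both genotypes (medians of 0.777 and 1.07 CPM) and fell by 0.46 (SE 0.17, edgeR adjusted p = 0.0425).

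Of 13 adaptors and regulators at the receptor, 4 were called higher and 4 lower. Socs3, a feedback inhibitor of cytokine and insulin receptors, rose by 0.89 (SE 0.24), from 0.476 to 2.68 CPM in WT mice and from 1.29 to 16.8 CPM in Akita mice, and the mouse at 16.8 CPM was again Akita replicate 5 on MitoGamide. Grb14 rose by 0.22 (SE 0.06), and its relative Grb10 fell by 0.22 (SE 0.05). Both encode adaptors that bind and dampen the insulin receptor. For Grb14 all 20 Akita mice were above the WT median and for Grb10 all 20 were below it. Gab1, a docking protein, fell by 0.21 (SE 0.05).

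Of 31 genes of PI3K, AKT and mTOR signalling, 3 were called higher and 1 lower. Mtor, encoding the kinase of both mTOR complexes, fell by 0.37 (SE 0.06), from a WT median of 307 to 241 CPM in Akita mice, and all 20 Akita mice were below the WT median. Pik3r3, a regulatory subunit of PI3K, rose by 0.40 (SE 0.06). Slc2a4, encoding the insulin-regulated glucose transporter GLUT4, rose by 0.31 (SE 0.08), from a WT median of 11.6 to 15.1 CPM. In single treatments Slc2a4 was called on the ethanol vehicle (0.67, edgeR adjusted p = 0.00137) and was at 0.47 on MitoGamide, -0.01 on water and 0.17 on MitoQ without a call. Eif4ebp1, a translation repressor that mTOR phosphorylates, rose by 0.26 (SE 0.08).

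Of 23 FOXO family members and known targets of FOXO or insulin, 9 were called higher and 1 lower. Cdkn1a, encoding the cell cycle inhibitor p21, rose by 1.54 (SE 0.21). It ranged from 4.56 to 57.2 CPM in Akita mice (median 10.6) and from 2.55 to 9.04 CPM in WT mice (median 4.40). Pck1 rose by 1.15 (SE 0.17), from a WT median of 1274 to 2718 CPM in Akita mice, with 19 of 20 Akita mice above the WT median. Pdk4 rose by 1.05 (SE 0.35, edgeR adjusted p = 0.0252), and its highest value, 314 CPM, was that of Akita replicate 5 on MitoGamide. Without this mouse the log2 fold change of Pdk4 was 0.65 and not called (edgeR adjusted p = 0.0796). In single treatments Pdk4 was not called, with log2 fold changes of 0.64 on the ethanol vehicle, 2.25 on MitoGamide, 0.82 on water and 0.57 on MitoQ. Srebf1, a lipogenic factor that insulin induces, fell by 0.52 (SE 0.10), and all 20 Akita mice were below the WT median of 41.0 CPM. Pck1 is a gene of the proximal tubule, and 3 of the 6 proximal tubule markers were called lower. The 6 markers summed to between 8211 and 13064 CPM in Akita mice and between 8799 and 16415 CPM in WT mice. Their part in the Pck1 difference was not tested. Cdkn1a is also a target of p53.

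Of 6 genes of the growth hormone axis, 1 was called. Ghr, encoding the growth hormone receptor, fell by 0.45 (SE 0.11, edgeR adjusted p = 0.00192), from a WT median of 491 to 344 CPM in Akita mice, and 19 of 20 Akita mice were below the WT median. The summed proximal tubule markers were lower too, from a WT median of 13891 CPM to 10548 CPM, and their part in the Ghr difference was not tested. Jak2, Stat5a, Stat5b, Socs2 and Cish were not called over all treatments. Socs2 was called on MitoGamide (log2 fold change 1.28, edgeR adjusted p = 0.0328), and without Akita replicate 5 it was 0.76 (edgeR adjusted p = 0.0135). Among the 4 treatments taken singly, edgeR called 18 of 85 other pathway genes on the ethanol vehicle, against 16.4% of all genes, and 11 of 83 on MitoGamide, against 14.3%. It called 2 of 84 on water, against 0.552%, and 2 of 83 on MitoQ, against 0.557%. The interaction terms called 0 of 83, against 0% of all genes. An unadjusted p under 0.05 was reached there by 5 of the 83 and by 4.97% of all genes.

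**Figure D5:**
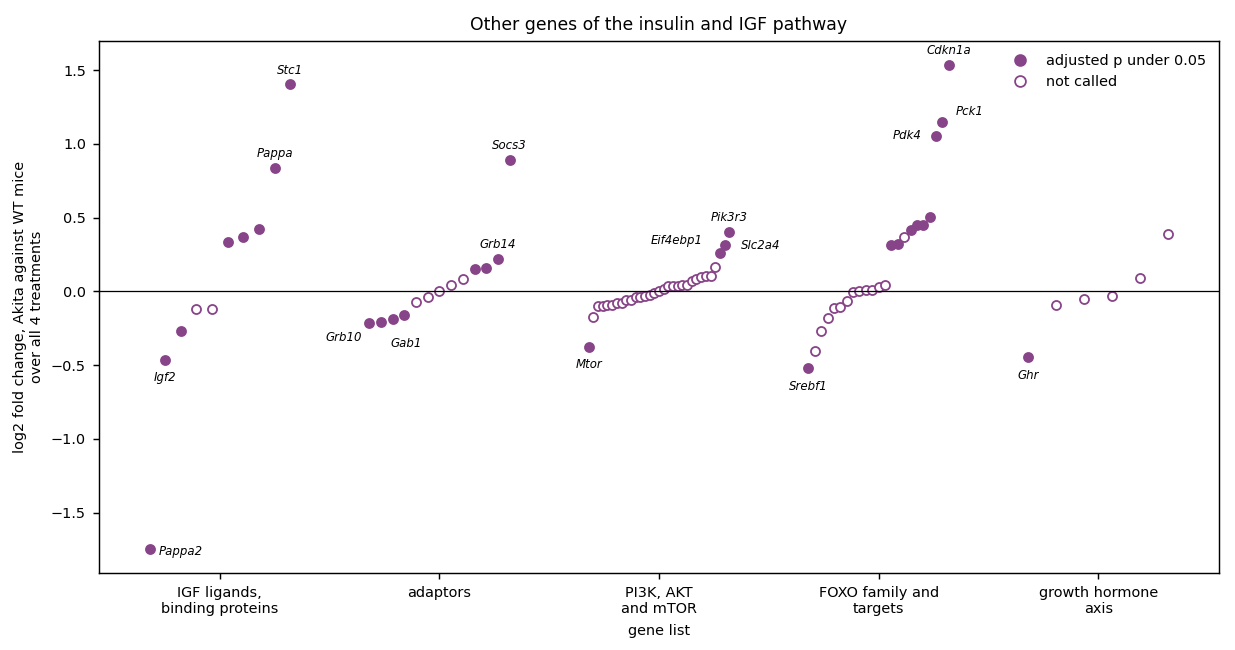
Log2 fold change between Akita and WT mice over all 4 treatments for 83 other genes of the insulin and IGF pathway, in 5 lists and ordered by size within each, with filled points for an adjusted p under 0.05. The largest differences are Pappa2, a gene near the limit of detection, at -1.75, Cdkn1a at 1.54 and Stc1 at 1.40. Of the 31 genes of PI3K, AKT and mTOR signalling, 4 are filled.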

How the data were processed

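Renal cortex RNA of 40 mice, 5 in each of 8 groups, was depleted of ribosomal RNA and sequenced from strand-specific libraries. The authors mapped the reads to GENCODE mouse transcripts with kallisto 0.46.1 and summed them per gene in R 4.0.2. The deposited values are estimated counts, which were whole numbers and were used as deposited. Because kallisto divides reads among similar transcripts, genes with near-identical copies are less certain. CPM were computed here from them.

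Comparisons used edgeR 4.0.16 in R 4.3.3 (TMM, quasi-likelihood test, a minimum mean count of 10 across the fitted libraries, Benjamini-Hochberg adjustment over all genes, calls at an adjusted p under 0.05). Each of the 4 genotype and 4 drug comparisons was fitted on its own 10 libraries. The comparison over all treatments used 40 libraries with treatment as a factor, and the interaction test 40 libraries with 3 interaction terms. The authors used DESeq2, which is an alternative here (1.42.0). Other alternatives were RLE normalization, no or a stricter filter, all libraries in 1 fit, the replicate number as a block and each library left out. Omitting the 5 libraries that stood apart, omitting Akita replicate 5 on MitoGamide from the comparison over all treatments, and limma voom were added after the data were seen. The procedure was run on simulated counts with the same spread for all genes and changes larger than those of the members called over all treatments. Libraries that stand apart were not simulated, so this run does not show how the procedure performs on differences as seen here. Each library is 1 mouse.

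The 10 genes and the lists were chosen with earlier results of these data known. All 10 are described. From each list of other pathway genes, up to 4 called genes with the largest log2 fold change over all treatments are named, and for likeness the 2 genes with the highest correlation. Genes described for Akita replicate 5 on MitoGamide were picked with their values known. Positions and exon lengths are from GENCODE release 21 (GRCm38), which held 99.5% of the identifiers, and the exon length is the union over transcripts, which overstates the length of any one of them. Total counts ranged from 9106654 to 24321424 per library, and the lowest count of any of the 10 genes in a library was 13, for Igfbp1, so that low values carry counting error.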

Additional observations from a re-analysis of the deposited data

Results flagged for a closer look

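For each of the 10 genes the 5 mice of each group were examined for one that stood far from the others, by the gap to the nearest mouse as a share of the range. Of 80 sets of 5 values, 15 were marked in this way, and chance alone marks about 1 in 20, or 4. That rate holds for normally distributed values, and the 10 genes share their mice, so that the 80 sets are not independent. Akita replicate 5 on MitoGamide was marked for Insr (246 CPM), Irs2 (239 CPM), Igfbp1 (131 CPM), Foxo1 (79.6 CPM) and Foxo3 (350 CPM). WT replicate 2 on water was marked for Igf1r (415 CPM), Irs2 (123 CPM), Igfbp1 (27.3 CPM) and Foxo3 (155 CPM). These 2 mice hold 9 of the 15 values, all of them high, and the second of them is not among the libraries that stood apart.

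Irs2 was also marked in WT replicate 4 on the ethanol vehicle (154 CPM), in WT replicate 3 on MitoQ (59.7 CPM) and in Akita replicate 3 on the ethanol vehicle (67.2 CPM), so that 5 of its 8 groups held such a mouse. Igf1 was marked in WT replicate 3 on MitoQ, at 3.46 CPM where the other 4 were between 6.97 and 8.02 CPM, and in Akita replicate 1 on MitoGamide, at 5.27 CPM. Foxo1 was marked in WT replicate 3 on water, at 35.8 CPM where the others were between 46.0 and 50.2 CPM. Both WT libraries numbered 3 here were among those that stood apart, with 49.2% and 37.3% mitochondrial counts, and the part of this in these values was not tested.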

How the results depend on the processing

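Over all treatments the number of the 10 genes called was 4 by DESeq2, with RLE normalization, under both other filters, with the replicate block, without the libraries that stood apart, by limma voom and without Akita replicate 5 on MitoGamide, and 4 to 6 when the replicates of 1 number were left out (6 without replicate 2). Igf1, Foxo3, Foxo1 and Irs1 were called under each of these, with the adjusted p of Irs1 reaching 0.0492 and that of Foxo1 0.048. The count of other pathway genes, 31, was 19 to 31 with replicates left out (19 without replicate 4). It was 28 without Akita replicate 5 on MitoGamide, where Pdk4, Bnip3, Ptprf and Txnip were no longer called and Sesn1 was. Within single treatments the counts rest on few calls near the threshold. On the ethanol vehicle the 2 members became 0 with all 40 libraries in 1 fit, 1 by limma voom and 0 to 4 with 1 library left out (4 without WT replicate 3, 0 without Akita replicate 1, 2, 3 or 4 or WT replicate 1, 2 or 5), and the 18 other pathway genes became 4 in 1 fit. On MitoGamide the 1 member became 0 without a filter, in 1 fit, by limma voom and without the library that stood apart, and 0 to 1 with 1 library left out (0 without Akita replicate 2, 3, 4 or 5 or WT replicate 1 or 2), and the 11 other pathway genes became 18 by DESeq2, 18 without the library that stood apart and 6 to 18 with 1 left out (18 without Akita replicate 5, 6 or 7 without WT replicate 1, 2, 3 or 4). On water the 2 other pathway genes became 4 by DESeq2, 5 in 1 fit, 0 with the replicate block, 0 without the libraries that stood apart and 1 to 2 with 1 left out (1 without Akita replicate 4 or 5). On MitoQ the members became 2 by DESeq2, 1 without the library that stood apart and 0 to 1 with 1 left out (1 without WT replicate 3), and the 2 other pathway genes became 5 by DESeq2 and 4 in 1 fit. For MitoGamide in Akita mice the 0 members became 1 by DESeq2, 3 without the library that stood apart and 0 to 3 with 1 left out (3 without Akita replicate 5). All 40 libraries in 1 fit called 844 genes on the ethanol vehicle in place of 2910. In place of 101 on water, DESeq2 called 354, 1 fit 547, the block 32 and the fit without the libraries that stood apart 8. In place of 101 on MitoQ these were 415, 308, 48 and 270. In place of 214 for MitoGamide in Akita mice they were 1069, 32, 0 and 802, and 0 to 802 with 1 library left out. With 1 library left out, the 2386 genes on MitoGamide became 1368, 1248, 1451 and 1388 without WT replicate 1, 2, 3 or 4 and 1404 without Akita replicate 2. The 101 on water became 59, 52, 32 and 44 without Akita replicate 1, 2, 4 or 5 and 49 and 50 without WT replicate 1 or 4. The 101 on MitoQ became 35 without Akita replicate 5, 51, 57, 57 and 48 without WT replicate 1, 2, 4 or 5 and 270 without WT replicate 3. Those on the ethanol vehicle and over all treatments moved by less than 1.5 times. A fit with fewer libraries or a shared spread has other degrees of freedom, and beyond that the cause was not tested.

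Of 1510 log2 fold changes of members under an alternative, 27 changed sign by more than their standard error, and 111 others changed sign by less than that without a call. Without the library that stood apart, those on MitoGamide between genotypes were -0.082 for Insr, -0.048 for Irs2 and -0.26 for Igfbp1, and those of MitoGamide in Akita mice were -0.67 for Irs2, -1.23 for Igfbp1 and -0.45 for Foxo3. Without all 5 libraries that stood apart, that of Irs2 over all treatments was -0.066, and without Akita replicate 5 on MitoGamide alone it was -0.081. With single libraries or replicate numbers left out, Irs2 between genotypes ranged from -0.28 to 0.64 on the ethanol vehicle, -0.048 to 1.26 on MitoGamide, -0.28 to 0.38 on water and -0.16 to 0.34 over all treatments. Insr ranged from -0.082 to 0.11 and Igfbp1 from -0.26 to 2.89 on MitoGamide, and Igfbp1 ranged from -0.077 to 1.41 and Igfbp5 from -0.15 to 0.0285 over all treatments. For MitoGamide in Akita mice the ranges were -0.67 to 0.63 for Irs2, -1.23 to 1.89 for Igfbp1 and -0.45 to 0.15 for Foxo3. For MitoGamide in WT mice they were -0.57 to 0.49 for Igfbp1, -0.20 to 0.017 for Foxo3, -0.91 to 0.0091 for Irs2 and -0.10 to 0.22 for Igfbp3. For MitoQ in WT mice they were -1.51 to 0.57 for Igfbp1 and -0.25 to 0.12 for Foxo3.

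The labels do not say what the replicate numbers mark. Same-numbered deviations from the group means correlated between -0.433 and 0.612. With 5 pairs in each comparison, these values cannot decide whether the numbers pair the mice. With the replicate block, Igf1 on the ethanol vehicle was at -0.53 (edgeR adjusted p = 0.093) and Irs1 at 0.33 (0.0292), Igf1 on MitoGamide was at -0.61 (0.0771) and Igfbp3 at 0.60 (0.0149), and for MitoGamide in Akita mice Irs2 was at -0.18 and Igfbp1 at -0.47. Igf1 was counted with 16 to 179 reads a library, which limits how small a change could be seen.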

Other observations

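Mean levels of some of the 10 genes are given by arm of the study, as values that were not tested. Foxo1 in WT mice was at 53.4 ± 5.75 CPM on the ethanol vehicle and 53.5 ± 2.28 CPM on MitoGamide, and at 45.3 ± 5.64 CPM on water and 43.0 ± 1.83 CPM on MitoQ (mean ± SD, n = 5 mice each). Igfbp3 in WT mice was at 185 ± 22.7 CPM and 203 ± 68.8 CPM in the first arm and at 133 ± 31.6 CPM and 133 ± 23.7 CPM in the second. Irs1 in WT mice was at 26.7 ± 3.74 CPM and 26.4 ± 4.24 CPM in the first arm and at 30.2 ± 2.55 CPM and 29.0 ± 1.87 CPM in the second. In Akita mice Irs1 was at 33.0 ± 3.83 CPM and 28.5 ± 2.37 CPM in the first arm. In the second arm it was at 33.9 ± 1.61 CPM and 31.4 ± 2.17 CPM. Insr in WT mice was at 172 and 175 CPM in the first arm and at 141 and 151 CPM in the second. Igf1r in WT mice was at 362 and 370 CPM in the first and at 370 and 372 CPM in the second. Arm and vehicle cannot be told apart, and 4 of the 5 libraries that stood apart from the rest belong to the second arm.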
